A study of Mus musculus with 4 samples.

Results

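Cells of the intestinal crypt read the chemistry of the gut lumen through a small set of ligand-activated transcription factors. The 10 genes described here were chosen by name, as the rows of the count table called Ahr, Ahrr, Tiparp, Nr1i2, Nr1i3, Nr1h2, Nr1h3, Nr1h4, Rxra and Vdr, and are 10 of the 52459 genes listed. RNA came from intestinal stem cells (ISCs) sorted from the small intestine of C57/Bl6 mice of WT genotype, per the study's methods female, at an age of 2 months (ISC_2mth, young) or 22 months (ISC_22mth, old). The sort (SM6 strategy) took EPCAM+ cells with high EPHB2 and CD44 and without the endothelial and leukocyte proteins CD31 and CD45. Each of the 4 libraries, 2 per age, was made from a pool of 5 animals, so that differences between single animals cannot be seen. Libraries covered full-length (FL) transcripts after SPIA, an isothermal amplification of small amounts of RNA, and were read from a single end.

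The aryl hydrocarbon receptor (AHR) waits in the cytoplasm in a complex with heat shock proteins, binds dietary indoles, microbial metabolites and pollutants, and then pairs with ARNT in the nucleus. AHRR is its repressor, and TIPARP is an enzyme that ADP-ribosylates AHR and restrains it. The other members are nuclear receptors. Nr1i2 and Nr1i3 encode PXR and CAR, sensors of drugs and other foreign compounds, Nr1h2 and Nr1h3 encode LXRβ and LXRα, sensors of oxysterols, Nr1h4 encodes the bile acid receptor FXR, and Vdr encodes the vitamin D receptor. All of these bind DNA as dimers with RXRα, the product of Rxra, and in the intestine they set drug metabolism, sterol export, bile acid handling and calcium uptake.

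Depth was between 11662654 and 15975698 counts per library. The reads left beside those of mitochondrially encoded genes limit the precision for genes with few counts. Replicate pools also differed by more than sampling noise, as given below. Mitochondrially encoded genes took 62.6% and 65.7% of the counts in the young and 73.8% and 72.9% in the old pools, without overlap of the ages. Scaling without them is given among the alternatives below, and their part in the results beyond the scaling was not tested. Values below are CPM, that is counts scaled to a common library size, after TMM normalization (trimmed mean of M values), and 1 read was worth between 0.066 and 0.082 CPM. Markers of ISCs were present in every pool, with Lgr5 between 206 and 248 CPM. The 8 ISC markers summed to between 1868 and 2007 CPM in young and to between 1703 and 1890 CPM in old ISCs, of which Olfm4 alone made up 1111 to 1302 CPM. Of these 8, 6 had a log2 fold change below 0, and 5 had an unadjusted p under 0.05, as had 16.9% of all genes tested. Those 5 pointed in both directions, with Ascl2 at 0.33 (FDR = 0.199) and Axin2, of lowest FDR, at -0.46 (FDR = 0.051, edgeR) on the log2 scale. Of the 9 leukocyte markers, 4 had 0 counts in every library, Cd3g, Cd79a and Itgax among them, and Ptprc had at most 2, whereas Itgam had a log2 fold change of 0.78 (FDR = 0.030, edgeR). The call of Itgam was lost with DESeq2 (FDR = 0.074), without ISC_2mth replicate 1 (FDR = 0.307) and in 2 other alternatives, and its count is uncertain, since 3450 bp of its 5024 exonic bp overlap Gm49368 on the same strand and 66.3% of its 50-nt stretches are shared. All 10 enterocyte markers had a log2 fold change above 0, and Fabp1, Fabp2, Apob and Sis, 4 of the 10, had FDR under 0.05, Fabp2 not with DESeq2 (FDR = 0.218). Their summed level was between 635 and 739 CPM in young and between 1108 and 1260 CPM in old ISCs. The 6 goblet cell markers summed to between 1847 and 2440 CPM in young and to between 1970 and 2503 CPM in old ISCs. The 6 enteroendocrine markers, of which 5 were tested, summed to 40.3 and 149 CPM in young and to 93.0 and 125 CPM in old ISCs. In both lists 0 genes had FDR under 0.05, against 2.26% of all genes tested. The 6 Paneth cell markers summed to between 637 and 808 CPM in young and to 744 and 1933 CPM in old ISCs, the higher value in ISC_22mth replicate 1, and 3 of them, defensin genes that share sequence with others, had FDR under 0.05 by edgeR. With DESeq2 these 3 had FDR between 0.48 and 0.659, and without ISC_22mth replicate 1 their log2 fold changes went from between 0.87 and 1.11 to between 0.20 and 0.40, with 1 of the 3 still called. Of the 5 tuft cell markers, 3 were tested and 1 was called, Dclk1, which had 4 counts in each young pool and 42 and 19 counts in the old pools (log2 fold change 3.09, FDR = 0.026), a call lost with limma voom (FDR = 0.087) and without ISC_2mth replicate 1 or ISC_22mth replicate 1 (FDR = 0.056 and 0.230).

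Expression of the 10 genes spanned a wide range, and Vdr stood far above the others. Levels of different genes were compared per kilobase (kb) of exon, as the mean of the 4 pools. Vdr reached 65.8 ± 5.26 CPM per kb (SD, n = 4 pools), a level above that of 99.1% of the genes tested. Nr1i2 followed at 8.06 ± 1.10 and Rxra at 6.12 ± 0.589 CPM per kb. Nr1h4 had 4.88 ± 0.485, Tiparp 2.93 ± 0.495 and Ahr 2.49 ± 0.403 CPM per kb. Nr1h2 at 1.68 ± 0.362 and Nr1h3 at 1.44 ± 0.144 CPM per kb were the lowest of the genes that passed the filter, which asked that at least 1 pool exceed both 5 reads and 1 CPM, here per total count of the library and before TMM. Nr1i3 and Ahrr, at 0.10 and 0.016 CPM per kb, did not pass it. The ranges of neighbours over the 4 pools overlapped for Nr1i2 and Rxra, for Tiparp and Ahr, for Ahr and Nr1h2, for Nr1h2 and Nr1h3, and for Nr1i3 and Ahrr, so that their order is not resolved. They did not overlap for Vdr and Nr1i2, which differed 8.16-fold in mean level per kb, for Rxra and Nr1h4, for Nr1h4 and Tiparp, or for Nr1h3 and Nr1i3.

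**Figure D1:**
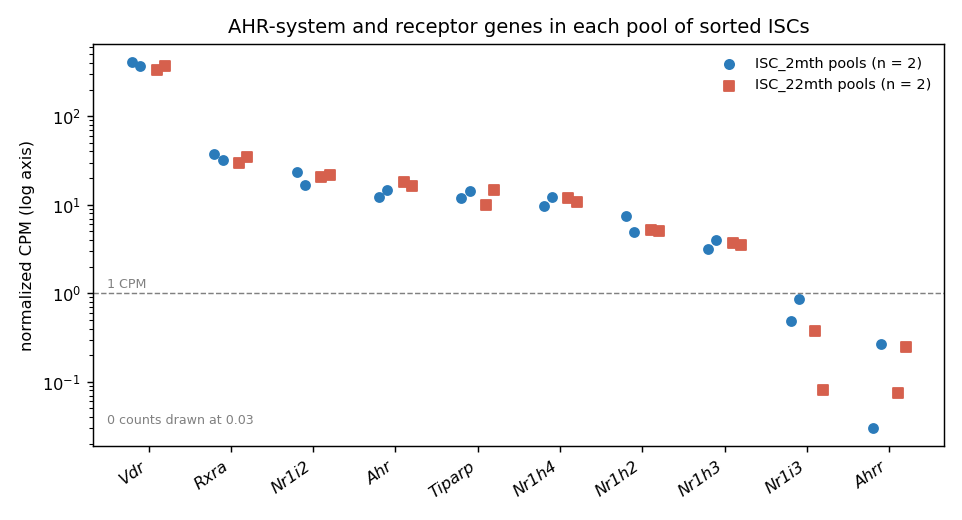
Normalized CPM (log axis) of the 10 genes in each pool, circles for the 2 ISC_2mth and squares for the 2 ISC_22mth pools, with a dashed line at 1 CPM. Young and old pools intermingle for most genes, whereas Ahr lies higher in both old pools and Nr1i3 and Ahrr lie below 1 CPM in all 4.

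Within the nuclear receptor superfamily, for which 49 genes were listed and 34 passed the filter, Vdr and Hnf4a, an intestinal identity factor, had the highest levels per kb. Vdr made up between 25.7% and 27.9% of the summed level per kb of the 49 genes, and Hnf4a between 25.8% and 28.3%. The ratio of Vdr to Hnf4a per kb was between 0.946 and 1.08 in the 4 pools, so that neither was above the other in all of them. Vdr exceeded Rxra, its obligate partner, by 10.5-fold to 11.2-fold per kb, a ratio that varied little between pools of either age. Rxra exceeded Rxrb, the second RXR gene, by 4.37-fold and 4.36-fold in young and by 5.85-fold and 5.37-fold in old ISCs, and Rxrg, the third, had 0 counts in every library. The oxysterol receptors were at similar levels, with ratios of Nr1h2 to Nr1h3 per kb of 1.76 and 0.910 in young and 1.06 in each old pool.

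**Figure D2:**
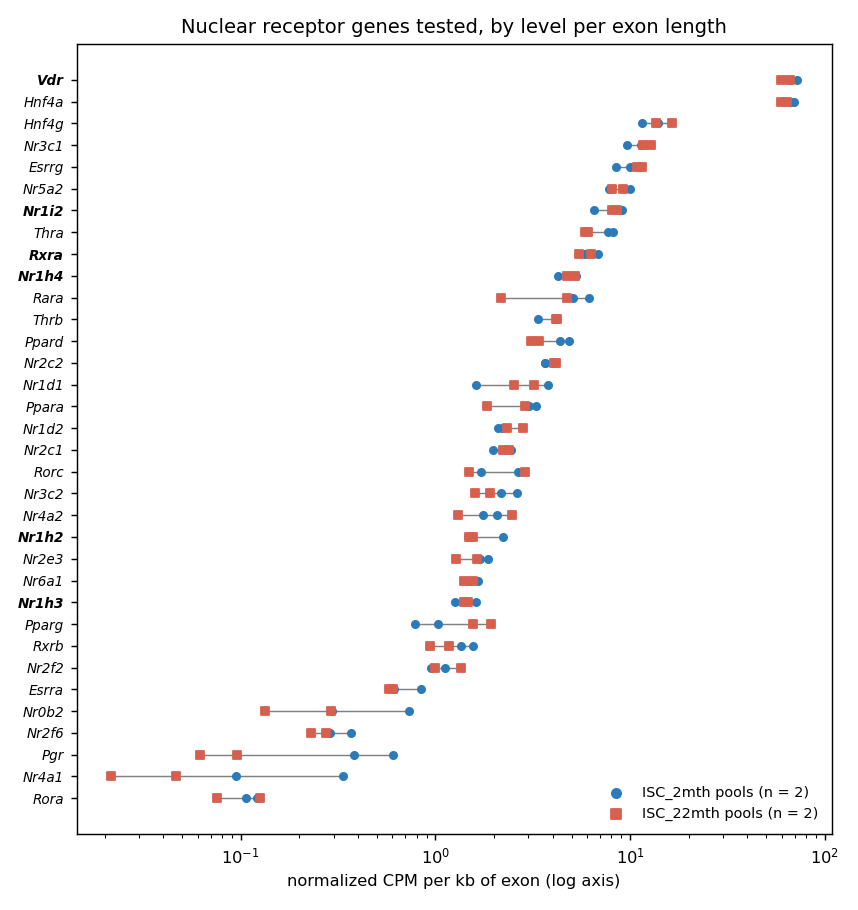
Normalized CPM per kb of exon (log axis) of the 34 nuclear receptor genes that passed the filter, one row per gene, with circles for ISC_2mth pools, squares for ISC_22mth pools, a line over the range, and the 6 receptors described here that passed it in bold. Vdr and Hnf4a lie above all others, and Nr1i2, Rxra and Nr1h4 lie in the upper part of the family.

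Promoter sequences are shown for Vdr, as the gene of highest level, for Ahrr, as that of lowest level, for Tiparp, as an expressed regulator of AHR with a CpG-rich start, and for Nr1h4 and Rxra, as the windows that hold the receptor half-site AGGTCA. RefSeq promoter windows on GRCm38.p6, from 250 bases before to 50 bases after an annotated start, were found for 9 of the 10 genes (11 windows), with Ahr not among them. Motifs were searched by exact letters on both strands. The core of the AHR response element, TNGCGTG, occurs in 1 of the 11 windows, that of Ahrr, and in 5.07% of all 32851 promoter windows. The half-site AGGTCA occurs in the Nr1h4 window and in the second Rxra window, and in 16.3% of all windows. The half-site AGTTCA, which with AGGTCA makes up vitamin D response elements, occurs in the Vdr window and in 14.0% of all windows. Direct repeats of AGGTCA with 3 or 4 bases between the copies, whose copies also count as AGGTCA, occur in 0 of the 11 windows, and in 2 and 5 of all windows. Capitals mark these matches, which are letters in a window and not sites of measured binding, and a match on the reverse strand reads TGACCT for AGGTCA and TGAACT for AGTTCA. The windows lie on the minus strand at chr15:97908247-97908546 for Vdr, chr13:74292282-74292581 for Ahrr and chr10:89506609-89506908 for Nr1h4, and on the plus strand at chr2:27709042-27709341 for Rxra and chr3:65528197-65528496 for Tiparp. Those printed for Vdr, Nr1h4 and Rxra lie inside the span of their gene given below, and the use of these starts in ISCs was not tested.
Vdr: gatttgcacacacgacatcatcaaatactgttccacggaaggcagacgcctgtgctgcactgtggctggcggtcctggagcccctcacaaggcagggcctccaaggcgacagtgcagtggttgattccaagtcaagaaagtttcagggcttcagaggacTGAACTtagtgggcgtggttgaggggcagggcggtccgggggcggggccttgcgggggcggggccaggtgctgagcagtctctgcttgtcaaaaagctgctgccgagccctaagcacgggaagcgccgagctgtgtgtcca
Ahrr: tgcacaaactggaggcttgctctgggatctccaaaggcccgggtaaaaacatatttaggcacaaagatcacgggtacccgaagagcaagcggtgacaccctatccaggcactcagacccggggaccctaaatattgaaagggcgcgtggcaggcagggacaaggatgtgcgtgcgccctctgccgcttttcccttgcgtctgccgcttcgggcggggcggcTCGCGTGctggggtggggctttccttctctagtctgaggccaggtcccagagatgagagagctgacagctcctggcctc
Nr1h4: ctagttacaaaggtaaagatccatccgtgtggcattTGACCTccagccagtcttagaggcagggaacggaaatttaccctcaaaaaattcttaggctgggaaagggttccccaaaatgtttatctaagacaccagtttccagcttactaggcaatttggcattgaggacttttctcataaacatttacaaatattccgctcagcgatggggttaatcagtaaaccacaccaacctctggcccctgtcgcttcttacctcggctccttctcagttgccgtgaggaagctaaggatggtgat
Rxra: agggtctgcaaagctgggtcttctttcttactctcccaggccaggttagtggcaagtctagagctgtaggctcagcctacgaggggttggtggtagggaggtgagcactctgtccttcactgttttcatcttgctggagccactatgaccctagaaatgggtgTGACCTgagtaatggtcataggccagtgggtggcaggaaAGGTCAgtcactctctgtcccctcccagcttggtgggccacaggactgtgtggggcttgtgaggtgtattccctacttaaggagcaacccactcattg
Tiparp: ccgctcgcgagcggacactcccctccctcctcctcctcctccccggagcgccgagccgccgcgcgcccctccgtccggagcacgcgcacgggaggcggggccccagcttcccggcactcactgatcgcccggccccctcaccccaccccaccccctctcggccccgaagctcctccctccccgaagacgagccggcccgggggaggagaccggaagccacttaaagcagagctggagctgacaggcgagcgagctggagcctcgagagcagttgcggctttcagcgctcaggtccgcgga
The first base of the TNGCGTG match lies 29 bases before the Ahrr start, that of AGTTCA 91 bases before the Vdr start, and that of AGGTCA 214 bases before the Nr1h4 start. The Tiparp window has 34 CpG dinucleotides and the first Rxra window, not printed, has 55, whereas 11.7% of all windows have 30 or more. The Vdr window has 15, and those of Nr1i2 and Nr1i3 have 2 and 3.

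With age, 0 of the 8 genes that passed the filter had FDR under 0.05 by edgeR's quasi-likelihood test, against 2.26% of the 13692 genes tested. By direction, the share of all genes tested was 1.63% with higher and 0.628% with lower values in the old pools. At an unadjusted p under 0.05 the count was also 0 of 8, against 16.9% of all genes, and limma voom, DESeq2 and edgeR's likelihood ratio test called 0 of the 8 as well, against 2.34%, 1.44% and 4.46% of all genes. In 1 of the 8, Ahr, the ranges of the 2 ages did not overlap, against 47.6% of all genes tested, with the old pools higher, as for 24.0% of all. The log2 fold changes of the 8 genes had a median of -0.05, beside -0.0049 for all genes tested. A missed threshold does not show equal expression, and the 95% intervals of the log2 fold changes, given below for each gene, lay within -1 and 1 for all 8 and within -0.5 and 0.5 for 4 of them. An exact permutation test of 2 against 2 pools cannot give a p below 0.333, so none was used.

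**Figure D3:**
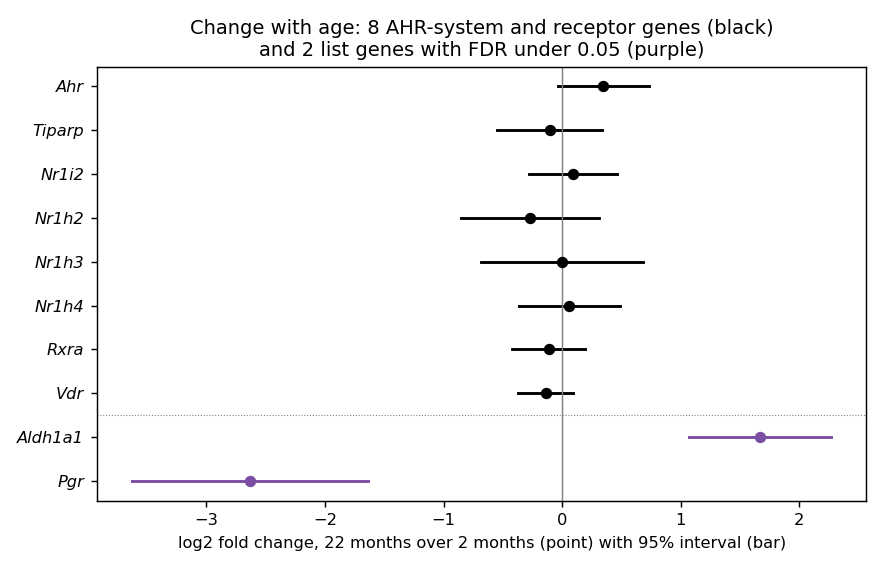
Log2 fold change of old over young ISCs (point) with its 95% interval (bar) for the 8 tested genes described here, in black, and for 2 genes of the partner, target and family lists with FDR under 0.05, in purple. All 8 black intervals include 0, and those of Aldh1a1 and Pgr do not.

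Of the 8 genes, Ahr had the log2 fold change furthest from 0, without passing the test. By the GENCODE vM21 annotation of GRCm38, on which all gene positions here rest, Ahr lies on chromosome 12 from 35497974 to 35535038. It had 12.1 and 14.8 CPM in the ISC_2mth pools and 18.0 and 16.3 CPM in the ISC_22mth pools, from 176, 224, 238 and 199 counts. Neither young pool reached the lower of the old pools. The log2 fold change was 0.35 (standard error 0.18, 95% interval -0.037 to 0.73, FDR = 0.354 by edgeR). With library totals alone, which put the median over all genes tested at -0.50, it was -0.14, or 0.35 relative to that shift. Exons of Ahr overlap those of the long noncoding RNA Gm48236 on the opposite strand over 127 bp, and the strand setting of the counting is not given in the sources used here.

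Tiparp, on chromosome 3 from 65528410 to 65555518, is itself a classical AHR target. Its CPM values were 12.0 and 14.5 in young and 10.1 and 14.6 in old ISCs, so that the lowest and the highest pool were both old. The log2 fold change was -0.11 (standard error 0.21, interval -0.55 to 0.34, FDR = 0.848). Exons of Tiparp overlap those of the pseudogene 4931440P22Rik over 223 bp, and 4.04% of its 50-nt stretches also occur in transcripts of other genes. Ahrr, on chromosome 13 from 74211118 to 74292331, had 0 and 4 counts in young and 1 and 3 counts in old ISCs. At this depth a change of Ahrr was not detectable, and no fold change is given. The repressor was thus near the floor of 3 counts, equal to between 0.199 and 0.246 CPM, in pools where the receptor had 176 or more counts.

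Of the foreign-compound sensors, Nr1i2 was well expressed and Nr1i3 was near the floor. Nr1i2, on chromosome 16 from 38248323 to 38294824, had 23.2 and 16.7 CPM in young and 20.5 and 22.0 CPM in old ISCs. The old pools lay between the young ones, and the log2 fold change was 0.091 (standard error 0.18, interval -0.28 to 0.46, FDR = 0.844). Nr1i3, on chromosome 1 from 171213970 to 171220701, had 7 and 13 counts in young and 5 and 1 counts in old ISCs. Both old pools were below both young pools, but the gene did not pass the filter. Fitted without a filter, its log2 fold change was -1.50 (interval -3.44 to 0.45, FDR = 0.650). Its count is uncertain, since 3304 bp of its 4414 exonic bp overlap exons of Tomm40l on the opposite strand and 63.6% of its 50-nt stretches occur in transcripts of other genes.

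Among the lipid sensors, the LXR genes had the widest intervals. Nr1h2, on chromosome 7 from 44549616 to 44553951, had 7.45 and 4.90 CPM in young and 5.22 and 5.00 CPM in old ISCs. A single young pool, ISC_2mth replicate 1, was high and the other 3 pools were alike. The log2 fold change was -0.27 (standard error 0.28, interval -0.85 to 0.31, FDR = 0.666), and without that pool it was 0.061. Nr1h3, on chromosome 2 from 91184061 to 91202834, had 3.17 and 4.04 CPM in young and 3.71 and 3.52 CPM in old ISCs, from 43 to 61 counts per pool. Its log2 fold change was 0.0022 (standard error 0.33, interval -0.68 to 0.69, FDR = 0.999), and a sign cannot be assigned to it.

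The bile acid receptor gene Nr1h4, on chromosome 10 from 89454234 to 89533585, had 9.80 and 12.2 CPM in young and 12.0 and 10.9 CPM in old ISCs. The old pools lay between the young ones. The log2 fold change was 0.060 (standard error 0.20, interval -0.37 to 0.49, FDR = 0.916).

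Vdr and Rxra, the members with the most reads, had the narrowest intervals. Vdr, on chromosome 15 from 97854425 to 97910630, had 407 and 372 CPM in young and 335 and 373 CPM in old ISCs, from 4422 to 5904 counts per pool. The highest pool was young and the lowest old, with the other pools at almost the same value. The mean was 390 ± 25.1 CPM in young and 354 ± 27.4 CPM in old ISCs (SD, n = 2 pools each). The log2 fold change was -0.14 (standard error 0.11, interval -0.37 to 0.093, FDR = 0.563), which as a ratio of old to young spans 0.774 to 1.07. Rxra, on chromosome 2 from 27676440 to 27762957, had 37.3 and 32.1 CPM in young and 29.8 and 34.5 CPM in old ISCs, and the ages overlapped. Its log2 fold change was -0.11 (standard error 0.15, interval -0.42 to 0.20, FDR = 0.753). Scaled by library totals alone, which put the median over all genes tested at -0.50 on the log2 scale, 4 of the 8 genes had FDR under 0.05, all lower in old ISCs, where 34.0% of all genes tested were called and 33.3% were called lower, and relative to that shift the log2 fold changes of Vdr and Rxra were -0.14 and -0.11.

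**Figure D4:**
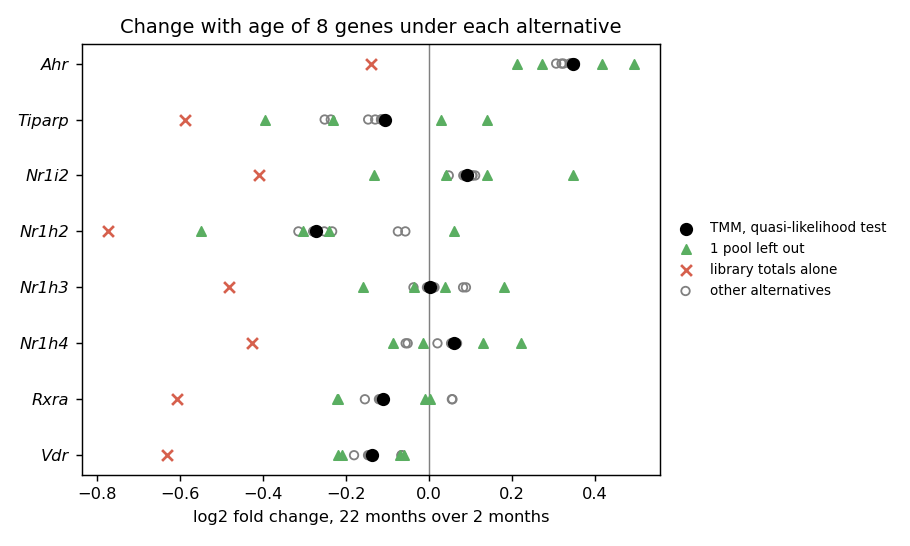
Log2 fold change of old over young ISCs for the 8 tested genes under the TMM-normalized quasi-likelihood test (filled circle), with 1 pool left out (triangles), with library totals alone (crosses) and under the other alternatives (open circles). Crosses lie to the left by the shift of all genes, and the sign of Nr1h3, Nr1h4, Nr1i2, Nr1h2, Tiparp and Rxra changes with the pool left out.

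Target genes of the receptors were read from lists of textbook targets. Where a list is described, the count of genes called is set beside the 2.26% of all genes called. Of the AHR targets, the monooxygenases were at or near 0 counts, whereas Tiparp, Nqo1 and Ugt1a6a were expressed. Cyp1a1, the dioxin-inducible monooxygenase, had 0 counts in all 4 libraries, which allows up to 0.199 to 0.246 CPM per library for counting error alone, and so had Cyp1b1 and the aldehyde dehydrogenase gene Aldh3a1, while Cyp1a2 had 1 count in 1 library. Of the 7 AHR targets listed, 2 passed the filter and 0 were called. These were Nqo1, a quinone reductase, with a log2 fold change of 0.44 (FDR = 0.462), and Ugt1a6a, a glucuronosyltransferase, with 0.59 (FDR = 0.287), both with old pools above young pools. The count of Ugt1a6a is uncertain, since 2170 of its 4312 exonic bp overlap Ugt1a7c on the same strand and 52.1% of its 50-nt stretches are shared with other genes. Of the 6 genes of the AHR complex, 0 were called. Ptges3, a co-chaperone of HSP90, came closest, with 18.2 and 20.6 CPM in young and 31.3 and 27.4 CPM in old ISCs (log2 fold change 0.60, FDR = 0.052). Ptges3 was called in 5 of the 16 alternatives, limma voom and the likelihood ratio test among them, and 19.6% of its 50-nt stretches are shared with other genes. Arnt, the nuclear partner, had a log2 fold change of -0.18 (FDR = 0.658), with 3 pools between 27.8 and 31.0 CPM and ISC_22mth replicate 2 at 19.2 CPM.

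Of the 17 PXR and CAR targets, 13 passed the filter and 1 was called. Of the 13, 11 had values above 0, beside 6771 of 13692 for all genes. The list median was 0.33 on the log2 scale, and -0.15 with library totals alone (0.34 relative to the shift of all genes). Without ISC_22mth replicate 1 the median was 0.18, and without ISC_2mth replicate 2 it was 0.56. The gene called was Aldh1a1, a retinaldehyde dehydrogenase, which rose from 2.83 and 5.37 CPM in young to 15.9 and 10.2 CPM in old ISCs. The ages did not overlap. The log2 fold change was 1.67 (standard error 0.29, interval 1.07 to 2.27, FDR = 0.0040), and Aldh1a1 was called in all 16 alternatives. Aldh1a1 lies on chromosome 19 from 20492715 to 20643465, and 3.06% of its 50-nt stretches occur in transcripts of other genes. Enterocyte markers were also higher in these pools, as given above, and their part in the rise of Aldh1a1 was not tested. The canonical PXR target Cyp3a11 had between 0 and 5 counts per library and the CAR target Cyp2b10 between 2 and 7. Abcb1a, which encodes a drug efflux pump, had 21.7 and 23.4 CPM in young and 34.7 and 30.0 CPM in old ISCs, and did not pass the test (log2 fold change 0.52, FDR = 0.079), with 22.5% of its 50-nt stretches shared. Abcc2, another efflux pump, had old pools below young pools with a log2 fold change of -0.27 (FDR = 0.299).

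Of the 12 LXR targets, 10 passed the filter, 0 were called and 9 had values below 0, with a median log2 fold change of -0.37, beside 6921 of 13692 genes below 0 in all. The median was -0.18 without ISC_2mth replicate 1 and -0.87 with library totals alone (-0.37 relative to the shift of all genes). Abca1, the cholesterol exporter, had 5.66 and 4.97 CPM in young and 5.37 and 4.67 CPM in old ISCs (log2 fold change -0.080, interval -0.65 to 0.49, FDR = 0.915). The half-transporters Abcg5 and Abcg8, which return sterols to the lumen, had log2 fold changes of -0.33 and -0.45 (FDR = 0.424 and 0.167), each without overlap of the ages. Scd2, a fatty acid desaturase, came closest to the threshold at -0.59 (FDR = 0.070). Lpcat3, a phospholipid remodelling enzyme, was at between 29.2 and 29.7 CPM in all pools, and the lowest log2 fold change, -1.38 for the cholesterol exporter gene Abcg1, rested on 1 to 16 counts per pool (FDR = 0.545).

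Of the 10 FXR targets, 4 passed the filter and 0 were called. Fgf15, the hormone that ileal enterocytes secrete in response to bile acids, had 1 count in 1 library and 0 in the others. Nr0b2, which encodes SHP, the repressor that FXR induces, had 12 and 5 counts in young and 2 and 4 counts in old ISCs, with old pools below young pools and a log2 fold change of -1.25 (FDR = 0.608). Slc51a and Slc51b, subunits of the basolateral bile acid exporter, had log2 fold changes of 0.78 and 0.82 (FDR = 0.202 and 0.341), with old pools above young pools, and 16.2% of the 50-nt stretches of Slc51a are shared. Fabp6, a bile acid binding protein of ileal enterocytes, had 5.86 and 12.2 CPM in young and 19.1 and 11.2 CPM in old ISCs, and the ages overlapped (log2 fold change 0.75, FDR = 0.183). Slc51a, Slc51b and Fabp6 are also genes of mature enterocytes, whose markers were higher in the old pools, and the part of such cells in these values was not tested. Gata4, a marker of the proximal small intestine, had a log2 fold change of 0.19 (FDR = 0.510).

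Of the 9 VDR targets, 4 passed the filter and 0 were called, while Vdr itself was abundant. Cyp24a1, the vitamin D hydroxylase induced by VDR, had 0 counts in every library, as had the calcium channel genes Trpv6 and Trpv5. S100g, the calcium-binding protein calbindin-D9k, had 3.73 and 6.43 CPM in young and 1.21 and 2.70 CPM in old ISCs, with old pools below young pools and a log2 fold change of -1.38 that missed the threshold (FDR = 0.079). Cldn2, a claudin that forms cation pores, was high at between 264 and 314 CPM in all pools, with a log2 fold change of 0.097 (FDR = 0.715). Partner and target genes named here other than Aldh1a1, Cyp1a1, Cyp3a11, Cyp2b10, Abca1, Fgf15 and Cyp24a1 were picked after their values were seen. Whether fewer cells of a type or less RNA per cell gave a lower value cannot be told apart in these pools.

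**Figure D5:**
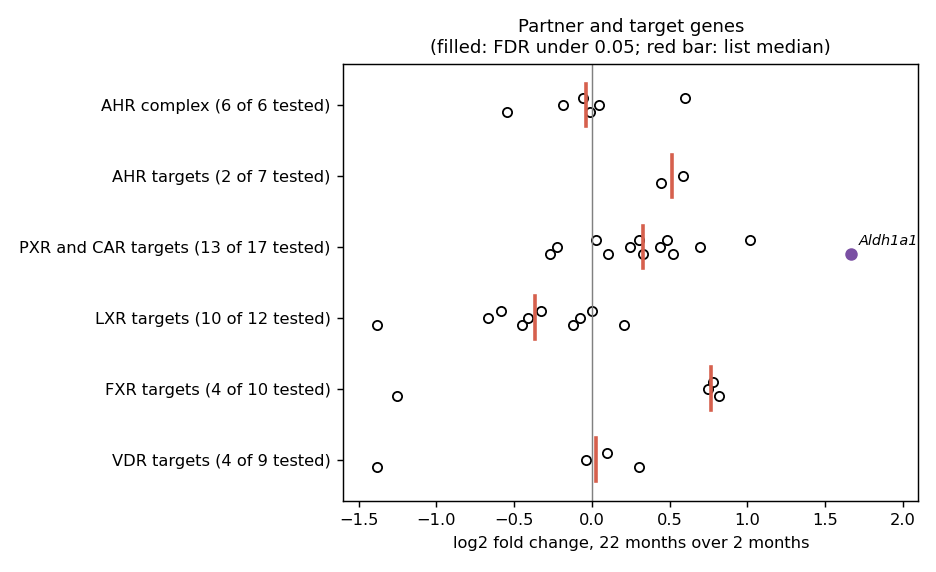
Log2 fold change of old over young ISCs for each tested gene of the partner and target lists, with filled points for FDR under 0.05 and a red bar at each list's median. Aldh1a1 among the PXR and CAR targets is the filled point, and the medians lie between -0.37 for LXR targets and 0.76 for FXR targets. The FXR median was 0.49 without ISC_22mth replicate 1 and 0.28 with library totals alone (0.77 relative to the shift of all genes).

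Among the other nuclear receptors, the progesterone receptor gene fell with age. Of the 34 superfamily genes tested, 1 was called, Pgr, which encodes the progesterone receptor, and the list median was -0.096 on the log2 scale, against -0.0049 for all genes. It was -0.049 without ISC_22mth replicate 1 and -0.20 without ISC_22mth replicate 2. Pgr, on chromosome 9 from 8899833 to 8968611, had 75 and 49 counts in young and 7 and 10 counts in old ISCs, and fell from 5.17 and 3.25 CPM to 0.530 and 0.819 CPM. Its log2 fold change was -2.63 (standard error 0.47, interval -3.63 to -1.64, FDR = 0.0057), with FDR = 0.093 without ISC_2mth replicate 1. In 18 of the 34 the ranges of the ages did not overlap, against 47.6% of all genes tested, and in 13 of the 34 the old pools were the lower, against 23.6% of all genes tested.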

How the data were processed

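The authors trimmed single-end reads with Trimmomatic (version 0.30), aligned them to the GRCm38 primary assembly with STAR, counted reads in exons of GENCODE vM15 genes with featureCounts, and deposited these raw counts per gene without normalization. Strand and multi-mapping settings are not given in the sources used here. Groups and replicate numbers came from the sample labels. Replicate pools differed by more than sampling noise (mean chi-square per gene 9.42 in ISC_2mth and 7.11 in ISC_22mth). Since each library is a pool of 5 animals, p-values measure the spread between pools. The quasi-likelihood test shared information on this spread across genes, with a median of 18.8 degrees of freedom per gene.

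A gene was kept if at least 1 library exceeded both 5 reads and 1 CPM, per total count and before TMM (13692 of 52459). Ages were compared with edgeR 4.0.16 (R 4.3.3; TMM, glmQLFit, glmQLFTest, no covariate), with Benjamini-Hochberg adjustment over all genes kept and a threshold of FDR 0.05. Standard errors came from the log2 fold change and the F value, and 95% intervals from the test's degrees of freedom. Alternatives used limma 3.58.1 (voom with sample quality weights), DESeq2 1.42.0, edgeR's likelihood ratio test, other scalings and filters, a replicate block, GC content and length offsets (lowess, span 0.3), and each pool left out. Gene positions, exonic lengths and shared 50-nt stretches came from GENCODE vM21 (GRCm38), matched by symbol, and promoter windows from RefSeq. Fits were tested on simulated counts. No molecular identifiers were counted, so that reads of 1 molecule are counted repeatedly and floors cover counting error only.

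Members and gene lists were chosen with earlier results of these data known. Genes named are the 10 members, at most the 3 genes of lowest p among those called in each list, and Cyp1a1, Cyp3a11, Cyp2b10, Abca1, Fgf15 and Cyp24a1. Others are named as picked after their values were seen. Some genes of the lists are not reported here, though counts over lists include them.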

Additional observations from a re-analysis of the deposited data

How the results depend on the processing

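Across 16 alternatives, the 8 tested members gave 0 calls in all but scaling by library totals, which called 4 (log2 fold changes of -0.59 for Tiparp, -0.77 for Nr1h2, -0.61 for Rxra and -0.63 for Vdr) and turned Ahr to -0.14, Nr1i2 to -0.41, Nr1h3 to -0.48 and Nr1h4 to -0.43. All these values include the shift of all genes to -0.50. Nr1h3 also turned to -0.0014 with DESeq2, -0.0016 with RLE size factors, -0.038 with upper quartile factors, -0.0053 without a filter and -0.0035 with filterByExpr. With GC content and length offsets Nr1h4 turned to -0.057 and Rxra to 0.055, and with the replicate block added to -0.052 and 0.056; the cause was not tested. With 1 pool left out, where the lone pool of an age is assumed to vary like the other age, log2 fold changes ranged from 0.21 to 0.49 for Ahr, -0.39 to 0.14 for Tiparp, -0.13 to 0.35 for Nr1i2, -0.55 to 0.061 for Nr1h2, -0.16 to 0.18 for Nr1h3, -0.087 to 0.22 for Nr1h4, -0.22 to 0.0012 for Rxra, -0.22 to -0.061 for Vdr and -0.19 to 0.017 for Abca1.

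The 3 list genes called became 8 by the likelihood ratio test, 8 without a filter, 42 with library totals and 2 to 10 with 1 pool left out. Leaving library totals aside, Ptges3, S100g, Scd2, Abcb1a, Fabp6, Ppard, Rara, Arnt and Epas1, not called in the report, were each called under at least 1 of these alternatives. All genes called, 309 in the report, became 197 with DESeq2, 611 by the likelihood ratio test, 4650 with library totals (96 higher), 554 without a filter, 179 with the offsets and 132 with offsets and block. They ranged from 147 to 691 with 1 pool left out, 147 without ISC_2mth replicate 1, 647 without ISC_22mth replicate 1 and 691 without ISC_22mth replicate 2. With mitochondrial and rRNA-like genes left out of the TMM scaling, 312 genes were called, among them 0 members and the same 3 list genes. With the replicate block, 10 list genes and 623 genes in all were called. Over all genes, same-numbered pools did not deviate together (correlation of their differences -0.00015). A correlation over all genes cannot show whether the numbers pair the pools for some genes.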

Other observations

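Pparg, a fatty acid sensor, had 44 and 35 counts in young and 75 and 56 counts in old ISCs, with a log2 fold change of 0.94 that did not pass the threshold (FDR = 0.141, edgeR). Ppard, the fatty acid receptor best known in ISCs, had 477 and 550 counts in young and 338 and 284 counts in old ISCs, with a log2 fold change of -0.51 (FDR = 0.079). Rara and Thra, receptors for retinoic acid and thyroid hormone, had log2 fold changes of -0.71 and -0.41 (FDR = 0.141 for each). Both old pools lay on 1 side of both young pools for these 4 genes, as for 47.6% of all genes tested, and all 4 were picked after their values were seen.

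Of the 16 bHLH-PAS relatives of AHR, 10 passed the filter and 0 were called by edgeR, with 1 at an unadjusted p under 0.05. That gene was Hif1a, the hypoxia factor, with a log2 fold change of 0.41 (FDR = 0.193).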
